A study of Mus musculus with 11 samples.

Results

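The data describe 10 genes of base excision repair and its partners in mouse embryonic stem cells (ESCs): the DNA glycosylases Tdg, Smug1, Mbd4, Ung, Neil1, Neil2 and Neil3, the AP endonuclease Apex1, the scaffold Xrcc1, and Ogt, a binding partner of Tet proteins. They were chosen by gene symbol, and all 10 are among the 23284 genes listed for each of 11 RNA-Seq libraries. Wild-type (WT) ESCs and ESCs in which Tet1, Tet2 and Tet3 are all knocked out (TKO) were each sequenced from ribodepleted total RNA with 2 libraries per group, either untreated (0 h) or treated for 4 h with α-amanitin at 10 µg/ml, which blocks RNA polymerase II. A further 3 libraries of untreated WT ESCs were made from polyadenylated (polyA) RNA. All ESCs were grown on gelatin in serum with leukemia inhibitory factor. The study describes the α-amanitin experiment as biologically replicated. For the polyA libraries the sources used here do not say whether they came from separate cultures, so p-values in their comparison measure only the spread between these libraries, which may be technical. The number of TKO clones is not given either, and a difference between genotypes cannot be told apart from a difference between cell lines.

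Tet dioxygenases oxidise 5-methylcytosine to 5-hydroxymethylcytosine and further to 5-formylcytosine and 5-carboxylcytosine. TDG removes the last 2 of these bases from DNA, which leaves an abasic site. An AP endonuclease then cuts the strand, and XRCC1 gathers the polymerase and ligase that fill and seal the gap. The other glycosylases mostly act on different lesions: UNG and SMUG1 on uracil, MBD4 on thymine or uracil opposite guanine at CpG sites, and the NEIL enzymes on oxidised bases. OGT, the O-GlcNAc transferase, binds Tet proteins and modifies nuclear proteins. In ESCs this route is known for active DNA demethylation.

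Levels are given as TPM, a length-corrected share of a library's transcripts, which the authors computed from gene counts and which allows levels of different genes to be compared. The values used here were divided by a library size factor and are called scaled TPM. Reads per gene, recovered from the steps of the TPM values, summed to 25507874 to 29781366 in the ribodepleted libraries and to 72639837 to 82129168 in the polyA libraries. Tet1, which checks the labels, had 124 and 143 scaled TPM in the WT 0 h libraries and 30.0 and 30.2 in the TKO 0 h libraries. Tet2 had 48.1 and 55.5 in WT and 7.17 and 7.73 in TKO, whereas Tet3 was at 1.42 and 1.49 in WT and at 1.39 and 1.51 in TKO, so the level of the Tet3 transcript does not separate the genotypes. All 6 ESC markers (Pou5f1, Nanog, Sox2, Esrrb, Zfp42 and Klf4) were detected in every group, and their summed level was 2170 to 2310 scaled TPM in the WT and 1430 to 1540 in the TKO ribodepleted libraries. Summed over 6 genes, fibroblast markers lay at 7.57 to 10.7 scaled TPM in these WT libraries and at 11.6 to 14.6 in the TKO libraries. Primitive endoderm markers lay at 4.73 to 5.26 in WT and at 3.81 to 4.42 in TKO, and early neural markers at 33.9 to 40.3 and 33.2 to 35.2.

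Tdg, the glycosylase that acts directly on the products of Tet, is shown by sequence because its reads are hard to assign. In the mouse genome (build NCBIM37, the build called mm9 by the authors) Tdg lies on the plus strand at chr10:82092573-82113544. Its longest annotated coding transcript has 3502 bases. Of its 100-base windows, 66.0% occurred without a mismatch at another place in the genome and 85.1% with at most 2 mismatches. There were 4 such copies over 500 bases long, at 98.65% to 99.6% identity. They lie at chr15:82346686-82349711, annotated as Gm5806, at chr7:83388071-83391005, without an annotated gene, at chr10:41772360-41775242, annotated as the pseudogene Gm9855, and at chr19:33746768-33748526, within Lipo1. The stretch below is the beginning of the coding sequence, 60 bases from the start codon, and it is split between exon 1 (chr10:82092761-82092783) and exon 2 (chr10:82101446-82101482). It is set beside the aligned bases of 2 copies, on the plus strand at chr15:82346842-82346901 and on the minus strand at chr7:83390838-83390897, both of which run through the splice junction without a gap. Capitals mark bases that differ from Tdg.
Tdg, exons 1 and 2: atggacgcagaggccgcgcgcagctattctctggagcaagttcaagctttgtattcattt
Copy on chromosome 15: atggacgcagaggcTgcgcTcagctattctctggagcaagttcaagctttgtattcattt
Copy on chromosome 7: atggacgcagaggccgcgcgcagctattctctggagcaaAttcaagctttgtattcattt
Counted from 1 at the A of the start codon, with the base of Tdg first, the chromosome 15 copy differed at C15T and G20T and the chromosome 7 copy at G40A. The copies on chromosome 10 and chromosome 19 did not align over this stretch.

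Very few reads were counted to Tdg. In the WT 0 h libraries there were 6 and 13 reads, and in the WT 4 h libraries 13 and 3. The TKO libraries had 9 and 7 at 0 h and 7 and 6 at 4 h. The 3 WT polyA libraries had 23, 29 and 33 reads, or 0.198 to 0.248 TPM. In the 8 ribodepleted libraries the level was 0.0697 to 0.303 scaled TPM, both extremes were WT 4 h libraries, and the 95% Poisson intervals of the read numbers all overlapped, from 0.619 to 8.77 for 3 reads to 6.92 to 22.2 for 13 reads. These intervals cover counting error only. Tdg stayed below the limit of a mean of 1 scaled TPM and was not tested, and differences between groups were not detectable at these read numbers. How the authors' counting treated reads with several places in the genome was not given in the sources used here, so the level of Tdg is uncertain, and the part of the copies in it was not tested. Gm9855 was listed at 0 in all 11 libraries, and Gm5806 was not among the genes listed. Lipo1, within which another copy lies, had 181 to 266 reads in the ribodepleted and 739 to 883 in the polyA libraries. The part of that copy in the reads of Lipo1 was not tested. Among the other members, the share of windows found elsewhere reached 1.8% for Mbd4 and 0.9% for Neil3 with at most 2 mismatches, and was 0.0% for the rest. Tdg also shares 367 exonic bases with Glt8d2 on the opposite strand.

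**Figure D1:**
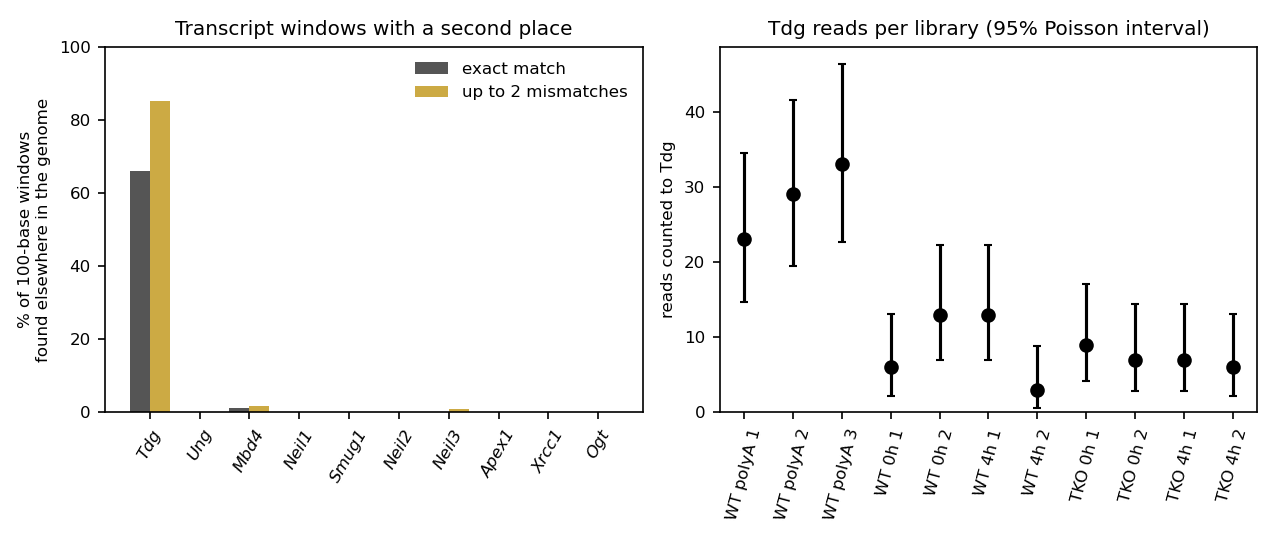
The left panel plots, for each gene, the percentage of 100-base windows of its longest coding transcript that occur elsewhere in the NCBIM37 genome, exactly (dark bars) or with up to 2 mismatches (light bars). Tdg reaches 66.0% and 85.1%, and no other member exceeds 1.8%. The right panel plots the reads counted to Tdg in each of the 11 libraries with 95% Poisson intervals, from 3 reads in a WT 4 h library to 33 in a polyA library.

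The other 9 genes fell into a high and a low class by level. Averaged over the 8 ribodepleted libraries, Apex1 was at 382.6 scaled TPM and ranked 347 among the 12467 genes tested. Ogt followed at 108.0, Ung at 100.9 and Xrcc1 at 70.6. The remaining glycosylases were all low: Mbd4 at 13.2, Neil1 at 10.6, Smug1 at 9.47, Neil2 at 6.60 and Neil3 at 3.595 scaled TPM, the last ranking 10288. Among the glycosylases tested, which leave out Tdg, Ung was thus the only one in the high class. In the WT libraries the libraries of neighbouring genes in this order did not overlap, at 0 h or at 4 h. In TKO, Smug1 and Neil1 overlapped at both times, and at 4 h Ung was above Ogt. The read numbers behind a value in a ribodepleted library were 84 to 152 for Neil3, 146 to 209 for Neil1, 164 to 202 for Neil2, 423 to 588 for Smug1 and 564 to 772 for Mbd4, and at least 1912 for the 4 high genes, so the low genes carry the larger counting error.

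**Figure D2:**
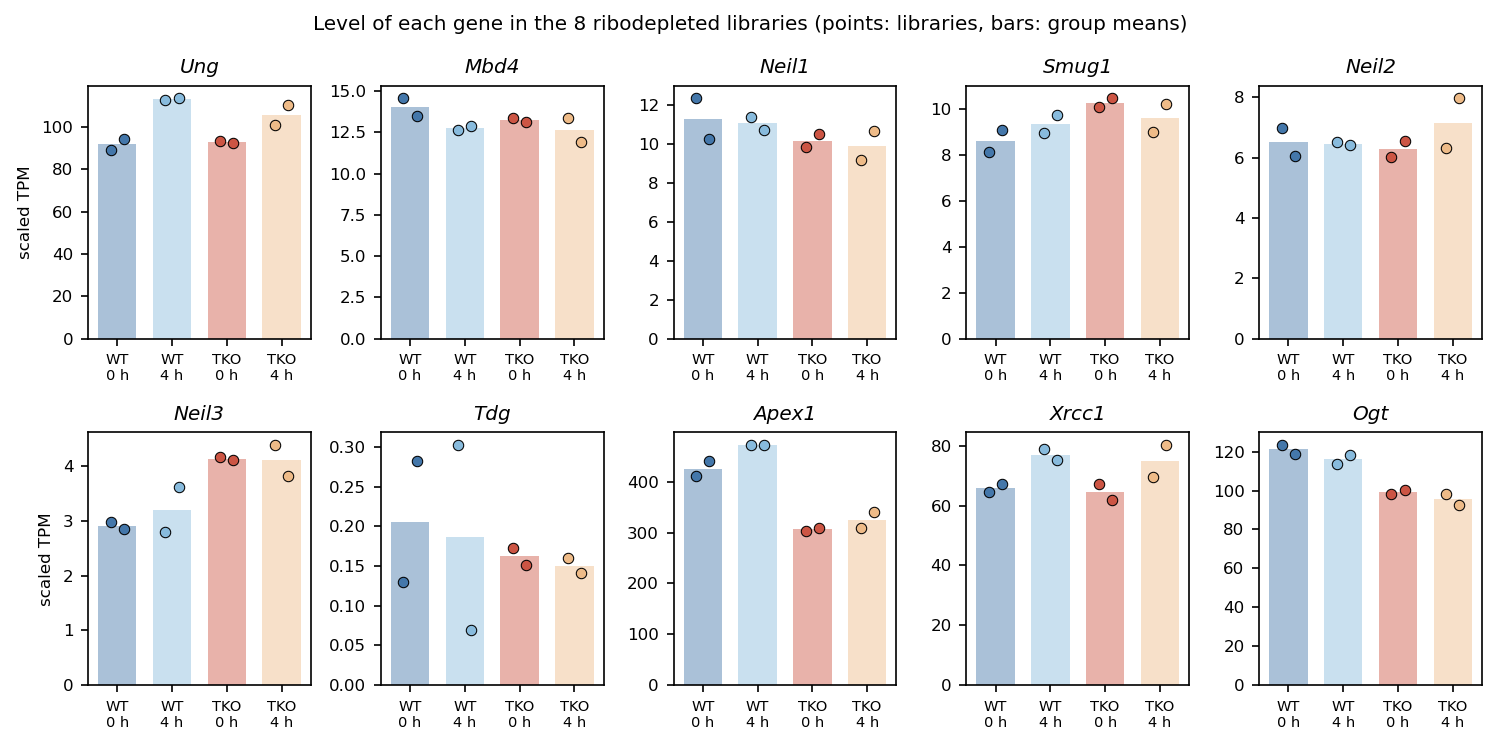
Each panel plots scaled TPM of a gene (linear axis from 0, own scale per panel) in the 8 ribodepleted libraries. Points are libraries and bars are the means of 2 libraries. At each time Apex1 and Ogt are lower in both TKO libraries than in both WT libraries (42.6% of all genes at 0 h, 39.9% at 4 h). Neil3 is higher in both TKO libraries at each time (39.1% and 38.4% of all genes). In each genotype Ung is higher in both 4 h libraries than in both 0 h libraries (40.5% of all genes in WT, 32.7% in TKO).

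To see whether loss of Tets went along with a change in these transcripts, TKO and WT ESCs were compared at 0 h and again at 4 h. Apex1 and Ogt were lower in TKO at both times, and Neil3 and Smug1 were slightly higher at 0 h. Of the 9 genes tested, 2 were higher in TKO at 0 h and 2 lower, at an adjusted p under 0.05 (limma, Benjamini-Hochberg over all genes). In the same fit 27.8% of all genes were higher and 28.2% lower, so these counts are near the background. The libraries of the genotypes did not overlap for 2 genes that were higher (39.1% of all genes) and 3 that were lower (42.6%). None of the 9 differed by over 1.5-fold in either direction, where 10.5% of all genes were higher and 5.43% lower. At 4 h none was higher (1 at an unadjusted p under 0.05, and none with limma voom on the recovered reads) and 2 were lower, against 29.1% and 30.3% of all genes. At 4 h the libraries did not overlap for 1 higher gene (38.4% of all genes) and 4 lower genes (39.9%). None exceeded 1.5-fold at 4 h, where 11.0% of all genes were higher and 5.82% lower. The median log2 difference of the 9 genes was -0.04 at 0 h and -0.04 at 4 h, beside -0.02 and -0.01 (log2) over all genes tested. In these bulk samples, fewer cells of a type and less RNA per cell cannot be told apart.

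Apex1 encodes the main AP endonuclease, which cuts the DNA backbone at the abasic site left by a glycosylase. It lies at chr14:51544643-51546814 on the plus strand. At 0 h it had 411.4 and 440.8 scaled TPM in WT and 304.0 and 308.6 in TKO. At 4 h it had 472.4 and 473.5 in WT and 308.9 and 341.4 in TKO. At each time both TKO libraries lay below both WT libraries (42.6% of all genes at 0 h, 39.9% at 4 h). The gap between the genotypes exceeded the spread within each group. The log2 difference of scaled TPM + 1 was -0.47 ± 0.059 (SE, n = 2 per group) at 0 h, with adjusted p = 0.000198 in limma, and -0.54 ± 0.059 at 4 h, with adjusted p = 8.31e-05. The TKO mean was 0.719 of the WT mean at 0 h and 0.688 at 4 h. The call held at both times in each of 17 alternatives. In these the log2 difference ran from -0.53 to -0.32 at 0 h and from -0.61 to -0.31 at 4 h. It was smallest with quantile normalisation at both times. In the alternatives that kept all libraries, its adjusted p in limma did not exceed 0.000898. Apex1 shares 877 exonic bases with Tmem55b on the opposite strand, and the strand setting of the authors' counting was not given in the sources used here. Tmem55b was lower in TKO as well, by -0.40 ± 0.052 on the log2 scale at 0 h and -0.22 ± 0.052 at 4 h (SE, n = 2 per group). With α-amanitin in WT the log2 change of Tmem55b was -0.35 (adjusted p = 0.00557 in limma). The part of the overlap in the value of Apex1 was not tested.

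Ogt, on the plus strand of the X chromosome at chrX:98835399-98879690, was the other gene that was lower in TKO at both times. At 0 h its level was 123.7 and 118.6 scaled TPM in WT and 98.5 and 100.2 in TKO. At 4 h it was 113.9 and 118.3 in WT and 98.3 and 92.7 in TKO. At each time both TKO libraries were below both WT libraries (42.6% of all genes at 0 h, 39.9% at 4 h). The log2 difference was -0.28 ± 0.048 (SE, n = 2 per group) at 0 h, with adjusted p = 0.00112 in limma, and -0.28 ± 0.048 at 4 h, with adjusted p = 0.00109. The TKO mean was 0.820 and 0.822 of the WT mean. With the deposited TPM left unscaled, the 4 h difference was -0.12 on the log2 scale and lost its call (adjusted p = 0.147 in limma). That scaling moved the median of all genes at 4 h to 0.14 (log2), so relative to it the difference was similar in size.

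Neil3, a glycosylase for oxidised bases in single-stranded DNA, lies on the minus strand at chr8:54672221-54724419. It had 2.98 and 2.85 scaled TPM in the WT 0 h libraries and 4.18 and 4.11 in the TKO 0 h libraries. At 4 h it had 2.80 and 3.62 in WT and 4.40 and 3.82 in TKO. At each time both TKO libraries were above both WT libraries (39.1% of all genes at 0 h, 38.4% at 4 h). At 4 h the margin was smaller than the spread within either group. The log2 difference of scaled TPM + 1 was 0.39 ± 0.11 (SE, n = 2 per group) at 0 h, with adjusted p = 0.0147 in limma, and 0.29 ± 0.11 at 4 h, with adjusted p = 0.0507. This scale understates changes of low genes, and the ratio of mean scaled TPM was 1.42 at 0 h and 1.28 at 4 h. At 0 h the call was lost without WT 0 h replicate 2 (adjusted p = 0.0712 in limma), without TKO 0 h replicate 1 (0.0669) and without TKO 0 h replicate 2 (0.0579). It was also lost with quantile normalisation (adjusted p = 0.0654). At 4 h the log2 difference was 0.42 without WT 4 h replicate 2 and 0.37 without TKO 4 h replicate 2. It was 0.14 without WT 4 h replicate 1 and 0.21 without TKO 4 h replicate 1. With all libraries kept, a call at 4 h was gained with unscaled TPM (adjusted p = 0.023 in limma), a pseudocount of 5 TPM (0.0455) and no variance trend (0.0409). With quantile normalisation the 4 h difference was 0.115 (log2, adjusted p = 0.354 in limma).

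Smug1 (chr15:102983738-102988383, minus strand), a glycosylase for uracil and 5-hydroxymethyluracil, was at 8.12 and 9.10 scaled TPM in WT at 0 h and at 10.1 and 10.5 in TKO. At 4 h it was at 8.97 and 9.77 in WT and at 9.01 and 10.2 in TKO, and the groups overlapped. The log2 difference at 0 h was 0.23 ± 0.085 (SE, n = 2 per group), with adjusted p = 0.0433 in limma, and at 4 h it was 0.03 ± 0.085, with adjusted p = 0.755. The 0 h call rested on single libraries. Its adjusted p in limma was 0.245 without WT 0 h replicate 1, 0.0507 without WT 4 h replicate 2, 0.102 without TKO 0 h replicate 1 and 0.185 without TKO 0 h replicate 2. It was also lost with quantile normalisation (adjusted p = 0.154) and with no filter on low genes (0.115).

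The remaining 5 genes tested did not pass in either genotype comparison. Ung (chr5:114580395-114589332, plus strand), the main uracil glycosylase, was at 89.2 and 94.5 scaled TPM in WT and 93.2 and 92.2 in TKO at 0 h, and its log2 difference had a 95% confidence interval from -0.11 to 0.14. Without TKO 4 h replicate 2, Ung was lower in TKO at 4 h (log2 -0.16, adjusted p = 0.0209 in limma), whereas with both libraries the adjusted p was 0.132. Xrcc1 (chr7:25332169-25358457, plus strand) had 64.5 and 67.2 scaled TPM in WT and 67.2 and 61.8 in TKO at 0 h. Its interval ran from -0.20 to 0.14. Mbd4 (chr6:115790715-115803389, minus strand) had 14.6 and 13.5 in WT and 13.3 and 13.1 in TKO at 0 h, with an interval from -0.24 to 0.08. Neil1 (chr9:56990607-56995929, minus strand) had 12.4 and 10.3 scaled TPM in WT and 9.85 and 10.5 in TKO at 0 h, and Neil2 (chr14:63801280-63812378, minus strand) had 6.99 and 6.05 in WT and 6.02 and 6.55 in TKO. Both NEIL genes had wider intervals, from -0.36 to 0.09 and from -0.29 to 0.20 (log2). At both times the intervals of all 5 genes left out a 1.5-fold difference in either direction.

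**Figure D3:**
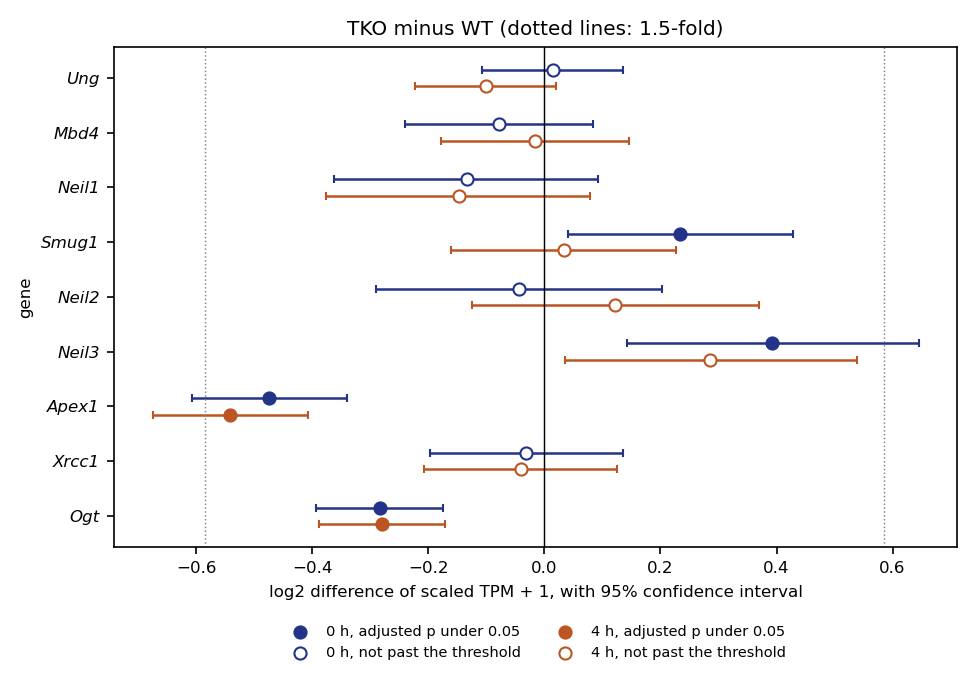
Horizontal axis: log2 difference of scaled TPM + 1, TKO minus WT, with 95% confidence intervals from limma (n = 2 libraries per group), at 0 h (blue) and 4 h (orange). Vertical axis: the 9 genes tested. Filled points passed an adjusted p of 0.05 and dotted lines mark 1.5-fold. Apex1 (-0.47 and -0.54) and Ogt (-0.28 and -0.28) are left of 0 at both times.

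α-Amanitin stops the making of new mRNA, so the comparison of 4 h with 0 h follows how transcripts held up against each other. TPM values are shares, and a fall common to all transcripts is not visible in them. In WT ESCs Ung and Xrcc1 passed as higher relative to other transcripts, and none of the 9 genes passed as lower. The counts were 2 of 9 higher and 0 lower at an adjusted p under 0.05 in limma, against 21.9% and 15.8% of all genes. No member fell at an unadjusted p under 0.05 or with limma voom. None differed by over 1.5-fold, which 0.0882% of all genes did upwards and 2.01% downwards. The 4 h and 0 h libraries of WT did not overlap for 3 higher genes (40.5% of all genes) and 2 lower genes (32.5%). In TKO ESCs none of the 9 passed, and 2 were higher and none lower at an unadjusted p under 0.05. Of all genes 0.0% were higher and 0.265% lower in TKO. With limma voom none passed in TKO either. The TKO libraries did not overlap for 3 higher genes (32.7%) and 1 lower gene (26.0%). The median log2 change of the 9 genes was 0.10 in WT and -0.01 in TKO, beside 0.03 and 0.01 over all genes tested.

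Ung had 89.2 and 94.5 scaled TPM at 0 h and 113.0 and 113.7 at 4 h in WT, and 93.2 and 92.2 at 0 h and 101.0 and 110.4 at 4 h in TKO. In both genotypes the 4 h libraries lay above the 0 h libraries (40.5% of all genes in WT, 32.7% in TKO). The log2 change was 0.30 ± 0.053 (SE, n = 2 per group) in WT, with adjusted p = 0.00692 in limma, and 0.19 ± 0.053 in TKO, with adjusted p = 0.126. The 4 h mean was 1.23 of the 0 h mean in WT and 1.14 in TKO. Without WT 4 h replicate 1 the adjusted p in WT was 0.0515, and without TKO 4 h replicate 1 the change in TKO passed (log2 0.25, adjusted p = 0.0159 in limma).

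Xrcc1 had 64.5 and 67.2 scaled TPM at 0 h and 79.0 and 75.1 at 4 h in WT. In TKO it had 67.2 and 61.8 at 0 h and 69.6 and 80.4 at 4 h. The 4 h libraries were again the higher in both genotypes (40.5% of all genes in WT, 32.7% in TKO). The TKO libraries spread more widely. The log2 change was 0.22 ± 0.073 (SE, n = 2 per group) in WT, with adjusted p = 0.0415 in limma, and 0.21 ± 0.073 in TKO, with adjusted p = 0.143. The WT call was close to the threshold and was lost in 11 of 17 alternatives. Its adjusted p in limma was 0.176 without WT 0 h replicate 1, 0.0857 without WT 0 h replicate 2, 0.174 without WT 4 h replicate 1 and 0.0712 without WT 4 h replicate 2. Leaving out a TKO library, which alters only the shared spread and scaling, gave 0.0594 without TKO 0 h replicate 1 and 0.060 without TKO 0 h replicate 2, but 0.0129 without TKO 4 h replicate 1 and 0.0118 without TKO 4 h replicate 2. With unscaled TPM the WT change was 0.07 (log2, adjusted p = 0.421), a scaling that moved the median change of all genes in WT to -0.11. In TKO, Xrcc1 passed without TKO 4 h replicate 1 (log2 0.32, adjusted p = 0.0184 in limma).

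Apex1, the most abundant member, went from 411.4 and 440.8 scaled TPM to 472.4 and 473.5 in WT and from 304.0 and 308.6 to 308.9 and 341.4 in TKO. Its log2 change was 0.15 ± 0.059 (SE, n = 2 per group) in WT, with adjusted p = 0.0716 in limma. With all libraries kept, it passed only with limma voom on the recovered reads (adjusted p = 0.0317). The rise was absent with quantile normalisation (log2 -0.025) and with unscaled TPM (adjusted p = 0.899 in limma), both changes being slightly negative. Leaving TPM unscaled moved the median change of all genes in WT to -0.11 (log2). The log2 change of Apex1 was 0.10 without WT 0 h replicate 1 and 0.20 without WT 0 h replicate 2. It was 0.147 without TKO 4 h replicate 1 and 0.151 without TKO 4 h replicate 2. Ogt went from 123.7 and 118.6 to 113.9 and 118.3 in WT, a log2 change of -0.06 ± 0.048 with adjusted p = 0.338 in limma. With unscaled TPM Ogt was lower at 4 h in WT (log2 -0.22, adjusted p = 0.0395), and the split in WT became 1 higher and 1 lower. The low genes Mbd4, Neil1, Neil2, Neil3 and Smug1 had log2 changes from -0.13 to 0.11 in WT and from -0.09 to 0.16 in TKO, and none of them passed. Tests of whether the change differed between the genotypes called none of the 9 genes, at an adjusted p or at an unadjusted p under 0.05, and none with limma voom. Of all genes, 0.0% passed in either direction. The smallest adjusted p of a member was 0.687, for Smug1 (log2 -0.20, 95% confidence interval from -0.48 to 0.07). For Ung the TKO change minus the WT change was -0.12, with an interval from -0.29 to 0.06, so a difference between the genotypes was not shown, although the tests in WT and TKO came out differently.

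**Figure D4:**
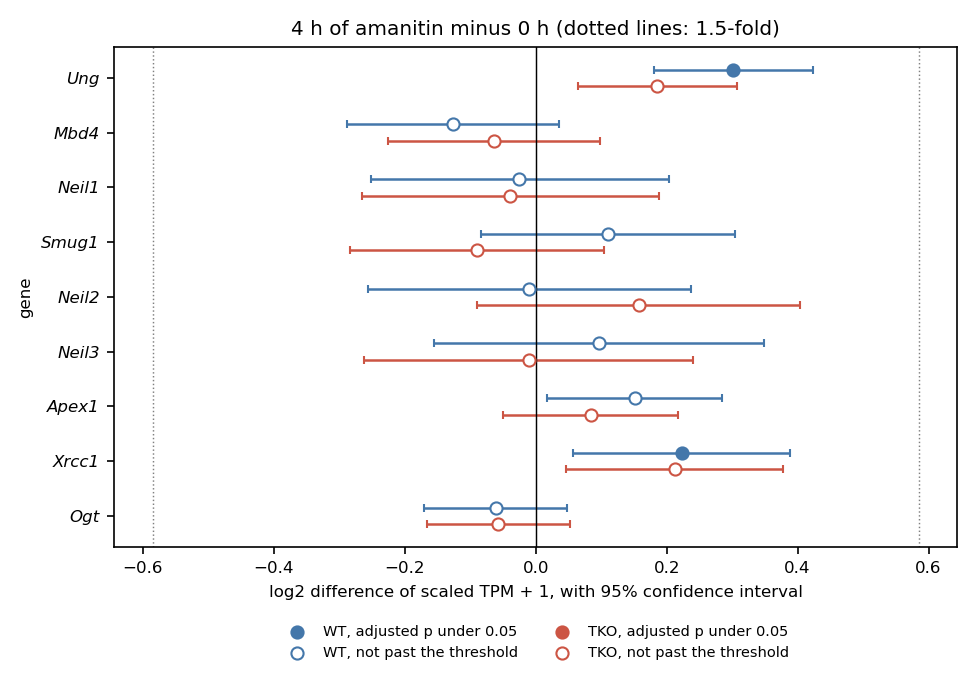
Horizontal axis: log2 difference of scaled TPM + 1, 4 h of α-amanitin minus 0 h, with 95% confidence intervals from limma (n = 2 libraries per group), in WT (blue) and TKO (red). Vertical axis: the 9 genes tested. Filled points passed an adjusted p of 0.05, which only Ung (0.30) and Xrcc1 (0.22) did, in WT. Dotted lines mark 1.5-fold.

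The 3 WT polyA libraries were compared with the 2 ribodepleted WT 0 h libraries in a fit of their own, to see how far the RNA preparation sets the level of each gene. These library types also differ in depth and in the experiment they belong to, which cannot be told apart here. Neil3 and Neil2 were clearly higher in polyA RNA, while the 4 high genes were slightly lower. Of the 9 genes, 3 were higher and 4 lower in polyA RNA at an adjusted p under 0.05 in limma, against 40.2% and 40.8% of all 12478 genes tested. Over 1.5-fold, 2 were higher and 0 lower, against 18.7% and 16.4%. The libraries did not overlap for 5 higher genes (43.1% of all genes) and 4 lower genes (43.9%). The median log2 difference of the 9 genes was 0.10, beside -0.01 over all genes. With unscaled TPM the split was 5 higher and 2 lower.

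In this fit Neil3 had 7.52, 7.39 and 7.27 scaled TPM in polyA RNA and 3.15 and 3.01 in ribodepleted RNA. The log2 difference was 1.04 ± 0.060 (SE, n = 3 and 2), with adjusted p = 6.39e-07 in limma, and the ratio of the means was 2.40. Neil2 had 11.3, 11.5 and 10.8 in polyA RNA and 7.37 and 6.39 in ribodepleted RNA, a log2 difference of 0.63 ± 0.067 with adjusted p = 2.96e-05. For both genes every polyA library lay above both ribodepleted libraries (43.1% of all genes). Neil1 was higher by 0.20 ± 0.075 (log2, SE, adjusted p = 0.0313 in limma). That call was lost without WT polyA replicate 2 (adjusted p = 0.0738 in limma) and without WT polyA replicate 3 (0.0656). It was also lost with no filter on low genes (0.0584) and with limma voom (0.0596). Without WT 0 h replicate 2 the log2 difference was 0.07.

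Apex1 had 370.9, 351.6 and 384.8 scaled TPM in polyA RNA and 434.0 and 465.3 in ribodepleted RNA, a log2 difference of -0.28 ± 0.050 (SE, n = 3 and 2) with adjusted p = 0.00076 in limma. Ogt had 108.2, 107.9 and 100.6 against 130.6 and 125.2, a difference of -0.27 ± 0.044 (log2) with adjusted p = 0.000415. Ung and Xrcc1 were lower by smaller amounts, -0.18 and -0.16 (log2). Both lost their calls with unscaled TPM (adjusted p = 0.0871 and 0.228 in limma), and Xrcc1 also with quantile normalisation (0.0798). Mbd4 (log2 0.12, adjusted p = 0.0806) and Smug1 (log2 0.10, adjusted p = 0.143) did not pass in limma. Smug1 passed without WT 0 h replicate 2 (log2 0.17, adjusted p = 0.0326), and both passed with unscaled TPM and with quantile normalisation.

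**Figure D5:**
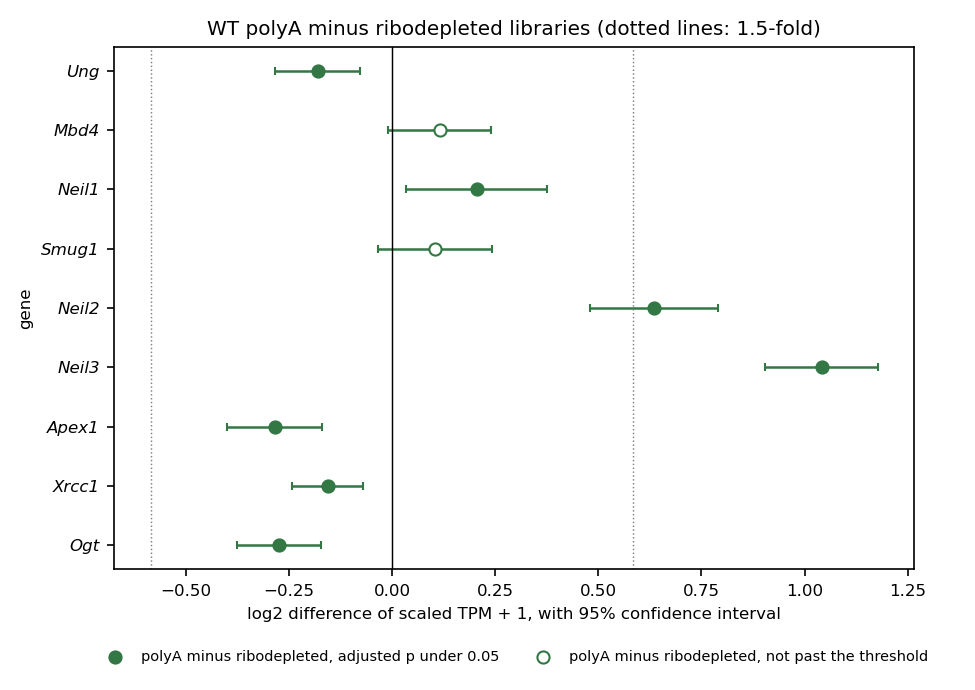
Horizontal axis: log2 difference of scaled TPM + 1, WT polyA (n = 3 libraries) minus WT ribodepleted at 0 h (n = 2 libraries), with 95% confidence intervals from limma. Vertical axis: the 9 genes tested. Filled points passed an adjusted p of 0.05. Neil3 (1.04) and Neil2 (0.63) lie beyond the dotted line at 1.5-fold, and Apex1, Ogt, Ung and Xrcc1 lie left of 0.

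The wider pathway was described with 33 other base excision repair genes, among them further glycosylases, polymerases and their accessory factors, ligases and PARP enzymes, all of which were tested. In TKO 5 of the 33 were higher and 12 lower at 0 h, and 6 were higher and 16 lower at 4 h, by an adjusted p under 0.05 in limma. Over all genes tested the shares were 27.8% higher and 28.2% lower at 0 h and 29.1% and 30.3% at 4 h. Their median log2 difference was -0.10 at 0 h and -0.13 at 4 h. Only Pold4, a small subunit of DNA polymerase delta, exceeded 1.5-fold, at 4 h (log2 0.69 ± 0.13, SE, n = 2 per group, adjusted p = 0.00198), and it is named here, outside the rule for named genes, after its value was seen. With α-amanitin 10 of the 33 were higher and 1 lower in WT, with a median of 0.10 (log2), against 21.9% and 15.8% of all genes. None passed in TKO, where 0.0% of all genes were higher and 0.265% lower, and the median was 0.06. In polyA RNA 11 were higher and 15 lower, against 40.2% and 40.8% of all genes. Of these, Parg, which degrades poly(ADP-ribose) chains, was lower by -1.15 ± 0.041 (log2, SE, adjusted p = 4.22e-08 in limma), and Parp3 by -1.13 ± 0.10 (adjusted p = 1.12e-05).

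A list of Tet genes and other partners of oxidised cytosine held 13 tested genes. Of these, 4 were higher and 5 lower in TKO at 0 h, and the counts were the same at 4 h. The shares of all genes are given above. The lower genes include Tet1 and Tet2, which are knocked out in TKO, so this part of the count follows from the design. The largest changes at 0 h were those of Tet2 (log2 -2.64) and Tet1 (log2 -2.11). They were followed by Gadd45g, a stress-inducible factor linked to DNA demethylation, which was higher by 1.58 ± 0.22 (log2, SE, adjusted p = 0.000413 in limma), and by 8430410A17Rik, the earlier symbol of Hmces, a protein that binds abasic sites in single-stranded DNA, which was lower by -1.51 ± 0.066 (adjusted p = 8.34e-07). At 4 h these genes had log2 differences of -2.58 (Tet2), -2.24 (Tet1), 1.67 (Gadd45g) and -1.59 (8430410A17Rik). In the same list 2 genes were higher and 3 lower at 4 h in WT, against 21.9% and 15.8% of all genes. None passed in TKO, where 0.0% of all genes were higher and 0.265% lower. In polyA RNA 6 were higher and 5 lower, against 40.2% and 40.8% of all genes. The largest polyA differences in the list were those of Gadd45a (log2 1.33) and Apobec3 (log2 1.16).

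Several members are known to be expressed with the cell cycle, and a list of 12 S-phase genes was read beside them. In TKO 1 of the 12 was higher and 6 were lower at 0 h, with the same counts at 4 h, against 27.8% and 28.2% of all genes at 0 h and 29.1% and 30.3% at 4 h. The median log2 difference of the list was -0.16 and -0.20. With α-amanitin 9 were higher and 2 lower in WT (median 0.21, log2), against 21.9% and 15.8% of all genes. None passed in TKO (median 0.12), where 0.0% of all genes were higher and 0.265% lower. In polyA RNA 1 was higher and 9 were lower, against 40.2% and 40.8%. The part of the S-phase genes, and of the ESC and fibroblast marker levels that differed between the genotypes, in the members' values was not tested.

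Promoters of the members were described by their CG dinucleotides in RefSeq windows of 300 bases around the gene start (build GRCm38.p6, a later build than that of the files). There were 10 windows for 9 of the 10 members. Apex1 had the most CGs, 31, a number that 10.6% of the 32851 promoter windows in the table reached. Tdg had 26, Mbd4 25, and Xrcc1 had 7, which was also the median of all windows. The member with the highest level and the member with the fewest reads thus both had CG-rich windows.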

How the data were processed

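RNA-Seq was analysed from 8 ribodepleted and 3 polyA libraries of mouse ESCs. Per the methods and the labels, the authors removed low-complexity, ribosomal and transfer RNA reads with AfterQC and Bowtie2, trimmed with Trimmomatic, used STAR for alignment to mm9 and RefSeq gene models, counted with HTSeq and deposited TPM per gene. Software versions, strand setting and treatment of reads with several places were not given in the sources used here. The 10 members and all gene lists were chosen with earlier results of these data known.

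Each library's TPM were divided by its size factor (median of ratios). Genes with a mean over 1 scaled TPM were tested as log2(scaled TPM + 1) with limma 3.58.1 in R 4.3.3 (empirical Bayes with a variance trend), in 1 fit of the 8 ribodepleted libraries and 1 of the 5 untreated WT libraries, with Benjamini-Hochberg adjustment over all genes. A gene passed at an adjusted p under 0.05. A limit of 1.5-fold was also given. Fold changes on this scale understate those of low genes. Whole reads were recovered for 100.0% of 19869 expressed genes (tolerance 0.001 reads). Replicates differed by more than sampling noise (chi-square over degrees of freedom at least 1.529 in every pair), so none was counted as a repeat. Transcripts (GENCODE vM1) were aligned to NCBIM37 with BLAST+ 2.17.0. The fits and the read recovery were tested on simulated data.

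The 9 tested members were covered in every comparison, by name or within a count or range. Tdg, which was not tested, was described by its reads. From the pathway lists, counts were given and at most 4 genes per comparison named, those past both limits with the largest change, apart from Pold4, which was named after its value was seen. The 3 genes most like Tdg were not computed, since Tdg was below the filter. Alternatives were unscaled TPM, quantile normalisation, other pseudocounts (0.1 and 5) and filters (none, and a mean of 5), limma voom on recovered reads, no variance trend, the replicate number as a block, the fold limit and leaving out each library.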

Additional observations from a re-analysis of the deposited data

How the results depend on the processing

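No member value that passed reversed its direction. Over 54 member values and up to 17 alternatives each, 837 of 886 values kept their side of the threshold, 31 lost it and 18 gained it. Another 63 changed sign while passing in neither. Of the counts of members passing, that higher in TKO at 0 h (2) became 0 with quantile normalisation and 1 with no filter or a filter at a mean of 5, and ran from 0 to 2 when a library was left out. That higher in TKO at 4 h (0) became 1 with unscaled TPM, a pseudocount of 5 or no variance trend, and ran from 0 to 1 without a library. That lower in TKO at 4 h (2) became 1 with unscaled TPM. That higher at 4 h in WT (2) became 1 with unscaled TPM, quantile normalisation, no filter or no variance trend, and ran from 0 to 3 without a library, and that lower (0) became 1 with unscaled TPM. That higher at 4 h in TKO (0) ran from 0 to 2 without a library. In polyA RNA the count higher (3) became 5 with unscaled TPM or quantile normalisation, and the count lower (4) became 2 with unscaled TPM. With a 1.5-fold limit added, the counts became 0 except for the 2 genes higher in polyA RNA. The cause of these shifts was not tested. Where a group kept 1 library, that library was assumed to vary like the others.

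With the replicate number as a block, 1 member was higher at 4 h in WT in place of 2: Xrcc1 had adjusted p = 0.0512 in limma. No other call of a member changed. The numbers were not shown to pair the libraries, since correlations of same-numbered deviations across genes were -0.0443 to 0.119 between groups. Low read numbers limit Tdg, with 3 to 13 reads per ribodepleted library, and the NEIL genes, with 84 to 209.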
